A study of Homo sapiens with 6 samples.

Results

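The genes described here encode the proteins of the cytosolic ribosome. They are the rows of the deposited count table whose symbol has the form RPL, RPS or RPLP followed by a number and, in some, the letter A, L or X, with a mean of at least 200 counts over the libraries. Of 80 symbols of this form, 76 met the count minimum, among the 36884 genes of the table: 43 of the large subunit, 30 of the small subunit and the 3 stalk genes. The lowest mean inside the limit was that of RPL17, at 262 counts, followed by RPL26 at 636.5. Outside it lay RPL36A at a mean of 73 counts, RPL3L at 0.333 and RPL10L, which had no count. RPS18 stood in 6 rows, of which 1 held all its counts.

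RNA came from RPE1, an immortalized, non-transformed human epithelial line derived from the retinal pigment epithelium, with LATS1 and LATS2 inactivated by CRISPR-Cas9 in every group. The cells received either a control siRNA or siRNA against MK5 (gene MAPKAPK5) for 48 h, with 3 libraries in each group, called biological replicates by the submitters. Whether the edited cells are 1 clone, and how many siRNA sequences were used, is not given in the sources used here. Totals ran from 27188074 to 28236773 counts per library. Levels are CPM (counts scaled to a common library total) after TMM scaling of the library totals, and fold changes are log2 ratios of MK5 siRNA to control siRNA, each given ± its standard error from edgeR. MAPKAPK5 was at 35.6, 29.05 and 31.3 CPM in control replicates 1, 2 and 3 and at 17.4, 14.1 and 16.2 CPM in MK5 siRNA replicates 1, 2 and 3 (−1.01 ± 0.14, edgeR adjusted p = 0.00169). Of the markers of pigment epithelium, OTX2 (32.4 CPM in controls) and MITF (54.1 CPM) were counted, while RPE65, RLBP1 and TYR had mean counts of 0.5, 0.333 and 0.333. The keratins KRT8 and KRT18 stood at 642 and 148 CPM in controls, whereas the epithelial markers CDH1 and EPCAM had mean counts of 2 and 0. The mesenchymal markers CDH2 and VIM stood at 409 and 3811 CPM in controls. Of the blood and endothelial markers PTPRC, CDH5, PECAM1 and HBB had mean counts of 4.5, 3.83, 0 and 0. After MK5 siRNA, MITF, KRT8 and KRT18 were lower, at 25.3, 363 and 88.7 CPM (edgeR adjusted p = 0.00114, 0.0104 and 0.00363), and OTX2 stood at 34.8 CPM. At low levels, CD34, a marker of blood progenitors and endothelium, fell from a mean of 2.06 to 0.104 CPM, and the pigment gene PMEL from 2.04 to 0.546 CPM (edgeR adjusted p = 0.000648 and 0.00189). The part of such marker changes in the results below was not tested.

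A ribosome carries a single copy of almost every ribosomal protein, so cells make them in near-equal numbers, and ribosomal proteins that are not assembled are degraded. The stalk proteins RPLP1 and RPLP2 are an exception, since several copies sit on RPLP0 and recruit elongation factors. Most mRNAs of these genes start with a C followed by an unbroken run of C and T, the terminal oligopyrimidine (TOP) tract, through which mTOR and the RNA-binding protein LARP1 control their translation and stability. A few genes have close relatives (paralogs) with other expression patterns, such as RPL39L and RPS27L.

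The annotated starts show this shared feature, which the choice of genes did not use. A tract was counted where the first transcribed base was C and at least 4 further bases, each C or T, followed it, on the transcribed strand, at any annotated start of the gene. Of 61 ribosomal protein genes with an entry in the RefSeq promoter sequences (GRCh38.p14), 44 (72.1%) had it, against 5.14% of all 27305 genes with an entry and 5 of 66 mitochondrial ribosomal protein genes. The sequences below run 5′ to 3′ from 10 bases before the start to 20 bases from it, with the tract in capitals. They show the members with an entry that fell most, then those with the highest fold changes, then a relative outside the rule and 2 other TOP genes that fell and rose.
RPS10, chr6:34426050-34426079, minus strand: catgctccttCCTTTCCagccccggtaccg
RPLP0, chr12:120201092-120201121, minus strand: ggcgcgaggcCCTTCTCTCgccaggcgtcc
RPL12, chr9:127451387-127451416, minus strand: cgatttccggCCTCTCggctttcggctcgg
RPL10A, chr6:35468391-35468420, plus strand: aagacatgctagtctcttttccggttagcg
RPL6, chr12:112409266-112409295, minus strand: gacggcgcgtgcactgtgttcctggtcctg
RPL24, chr3:101686699-101686728, minus strand: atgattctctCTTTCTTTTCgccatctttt
RPL10, chrX:154398367-154398396, plus strand: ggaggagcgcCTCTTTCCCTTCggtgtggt
RPS28, chr19:8321486-8321515, plus strand: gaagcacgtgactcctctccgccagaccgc
RPLP2, chr11:809957-809986, plus strand: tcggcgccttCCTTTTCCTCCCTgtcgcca
RPS27L, chr15:63157458-63157487, minus strand: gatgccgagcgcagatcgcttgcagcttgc
RPL22L1, chr3:170870176-170870205, minus strand: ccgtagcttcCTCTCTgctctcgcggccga
NPM1, chr5:171387839-171387868, plus strand: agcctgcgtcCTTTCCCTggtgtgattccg
EEF2, chr19:3985444-3985473, minus strand: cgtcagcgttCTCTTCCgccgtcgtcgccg
RPL10A and RPL6, which fell, and RPS28 and RPS27L, which did not pass, had no tract by this definition.

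After MK5 siRNA the ribosomal protein genes were lower as a group, by a modest amount that was alike in most of them. Of 76, 27 fell, none rose and 49 did not pass (edgeR quasi-likelihood test over 13431 genes, adjusted p below 0.05). Over all genes tested, 46.2% passed, split into 23.7% that fell and 22.5% that rose, against 35.5% that fell here. None rose at an unadjusted p below 0.05 in edgeR either, where 39 fell. Of all 13431 genes tested, 3727 fell and 3577 rose at that unadjusted threshold. In DESeq2 36 members fell and none rose (26.6% and 24.2% of all genes). The fitted fold change was below 0 in 74 of the 76 genes, against 6713 of all 13431 genes tested. Of the members, 67 were lower in each of the 3 replicate pairs, a count that was not made over all genes. The median log2 fold change was −0.34, with the middle quartiles of the genes between −0.41 and −0.26, whereas all genes tested had a median of 0.00 and middle quartiles between −0.54 and 0.52. A total of 47 members lay within 0.15 of their median. With the replicate number as a block, 49 fell (23.9% of all genes fell and 23.5% rose in that fit), among them 26 of the 27; RPL23A was the exception (edgeR adjusted p = 0.0600). The excess over all genes went when some libraries were left out. Without MK5 siRNA replicate 2, 9 members (11.8%) fell against 15.4% of all genes, and without MK5 siRNA replicate 3, 11 (14.5%) against 15.8%, so that the order was turned. Without control replicate 2, 16 (21.1%) fell against 19.9%, without control replicate 3, 16 (21.1%) against 20.2%, and without MK5 siRNA replicate 1, 22 (28.9%) against 18.9%. Without scaling beyond the library total 17 fell (20.2% of all genes fell and 26.4% rose), and without a filter on low counts 17 fell (14.2% and 12.9%).

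**Figure D1:**
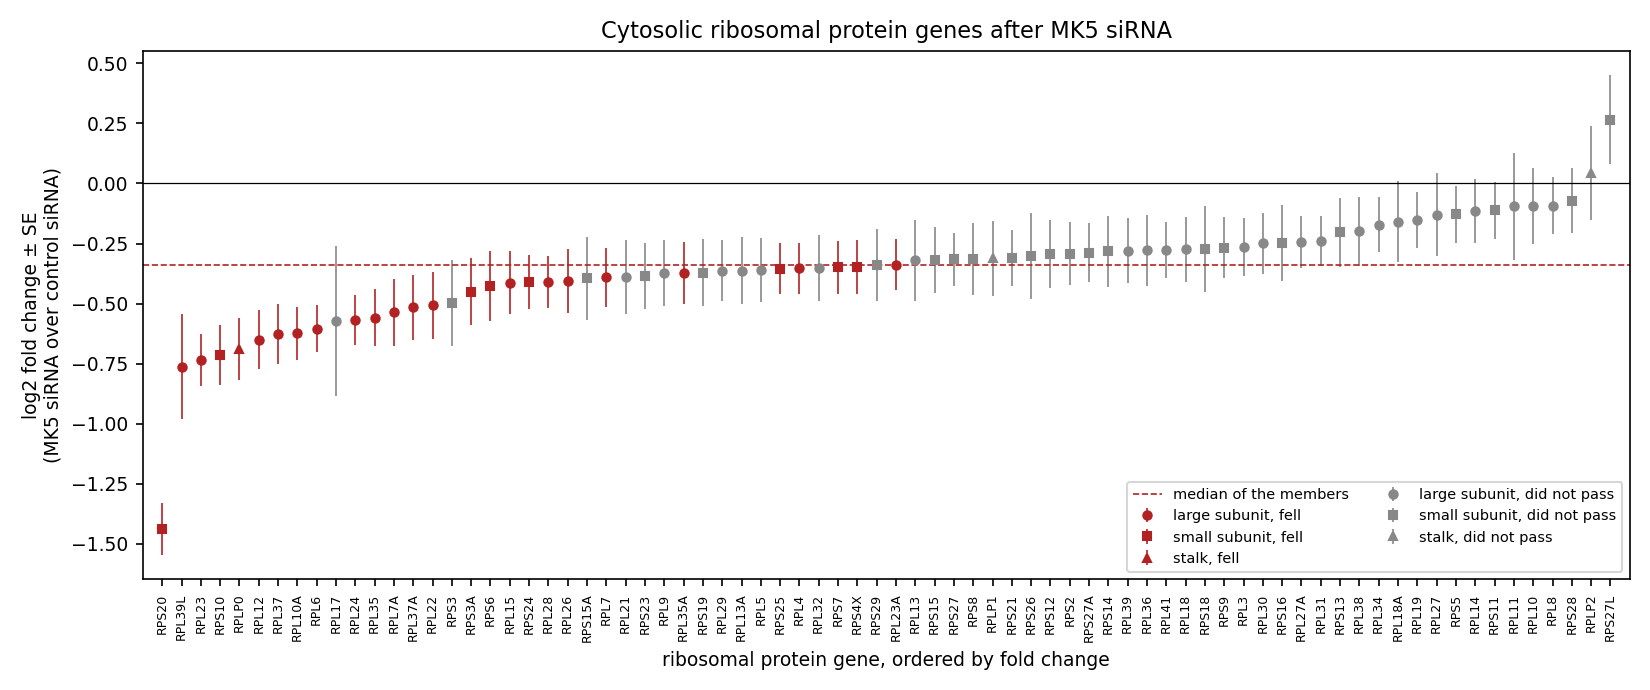
Log2 fold change of each of the 76 ribosomal protein genes, MK5 siRNA over control siRNA, with its standard error (3 libraries per group). Red symbols passed the test, grey ones did not, and shapes give the subunit. RPS20 lies far below the others at −1.44, and 74 genes lie below 0.

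The genes were high in abundance, and other abundant genes were lower as well. Among the 142 other genes at or above the members' median count, 58 fell and 28 rose, a share fallen of 40.8%, with a median of −0.33. Their spread was wider, with an interquartile range of 1.11 on the log2 scale against 0.15 in the ribosomal protein genes. In bulk RNA, fewer cells that express a gene and less of its RNA per cell cannot be told apart, and the total RNA per cell was not measured.

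The share of all counts in the 76 genes was 7.49%, 6.51% and 6.66% in control replicates 1, 2 and 3. It was 6.07%, 5.59% and 5.66% in MK5 siRNA replicates 1, 2 and 3, so that every MK5 siRNA library lay below every control library. The group means were 6.89% ± 0.53 and 5.78% ± 0.26 (SD, n = 3). Large-subunit genes took from 3.59% to 4.09% of counts in the controls and from 3.14% to 3.33% after MK5 siRNA. Small-subunit genes took from 2.44% to 2.85% and from 2.09% to 2.31%. The 3 stalk genes took from 0.484% to 0.553% and from 0.366% to 0.432%. The groups did not overlap in any of these shares.

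**Figure D2:**
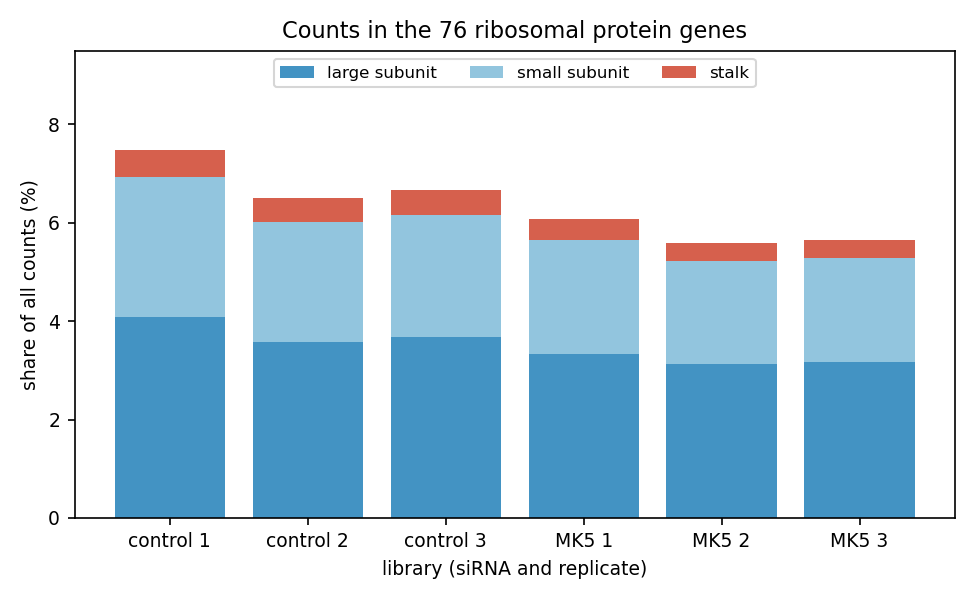
Share of all counts, in percent, taken by large-subunit, small-subunit and stalk genes in each of the 6 libraries. The stacked bars reach from 6.51% to 7.49% in the control libraries and from 5.59% to 6.07% after MK5 siRNA.

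Replicate 1 was the highest of its group in both groups. Against the mean of the control libraries, the median member stood at 0.19, −0.11 and −0.07 in control replicates 1, 2 and 3 (log2 of CPM + 0.5), and at −0.21, −0.41 and −0.38 in MK5 siRNA replicates 1, 2 and 3. Control replicate 1 exceeded the mean of the other controls in 72 of 76 members, by a median of 0.29, and MK5 siRNA replicate 1 exceeded its group in 71, by 0.18. The 4 members that were lower in control replicate 1 were RPL17 (−1.09), RPL11 (−0.83), RPS26 (−0.58) and RPL6 (−0.12), picked out after their values were seen. The medians of the changes within replicate pairs 1, 2 and 3 were −0.38, −0.30 and −0.30. Without control replicate 1, 40 members fell and 1 rose, where 32.1% of all genes fell and 32.3% rose. Without replicate 1 of both groups, 63 members fell and 1 rose, where 37.8% of all genes fell and 37.9% rose, and the median was −0.31. What sets replicate 1 apart was not tested.

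**Figure D3:**
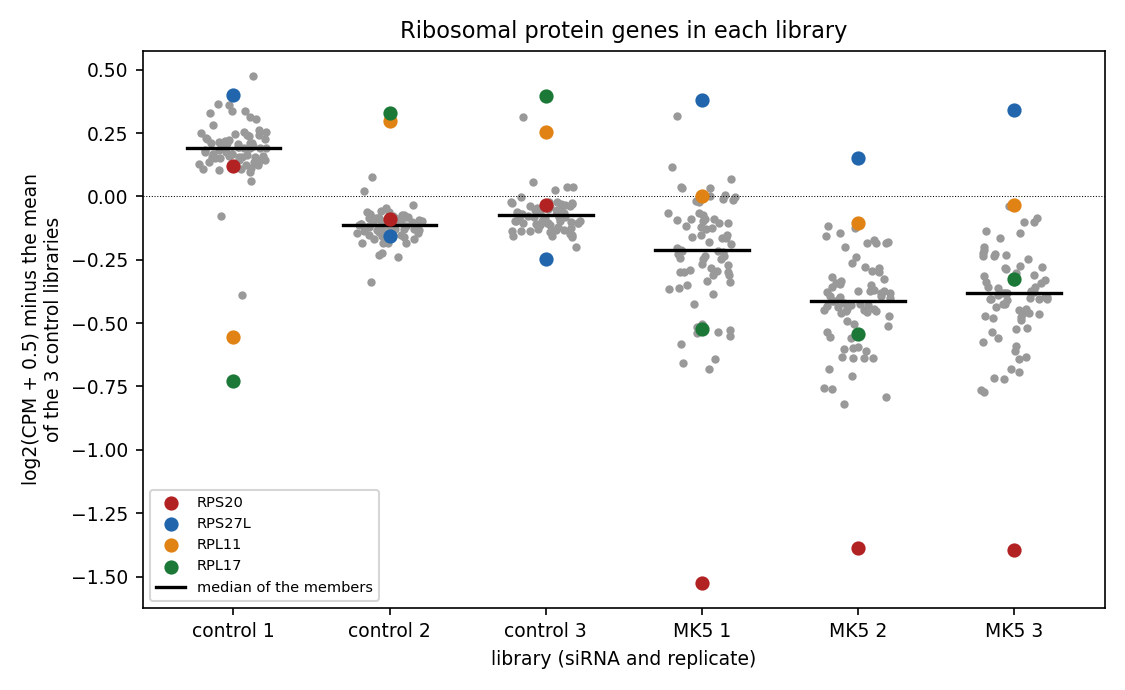
Each point is 1 ribosomal protein gene in 1 library, as log2(CPM + 0.5) minus its mean over the 3 control libraries, and black lines are medians. The medians are 0.19, −0.11 and −0.07 in the controls and −0.21, −0.41 and −0.38 after MK5 siRNA. RPS20 lies apart from the rest in each MK5 siRNA library, and RPL11 and RPL17 are low in control replicate 1.

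The small subunit held the gene with the greatest fall. RPS20, which encodes a protein of the small-subunit head, was at 905, 782 and 813 CPM in control replicates 1, 2 and 3 and at 289, 317 and 316 CPM in MK5 siRNA replicates 1, 2 and 3. It fell by 63.1% (−1.44 ± 0.11, edgeR adjusted p = 0.000252), and its fold change stayed between −1.50 and −1.33 under every alternative run. In the GENCODE annotation the gene that shares exon positions with RPS20 is the small nucleolar RNA SNORD54. RPS10, another protein of the small-subunit head, was at 810, 676 and 696 CPM in controls and at 495, 411 and 424 CPM after MK5 siRNA (−0.71 ± 0.13, edgeR adjusted p = 0.00417). Its exons are shared with the readthrough gene RPS10-NUDT3. The groups were well apart in both genes, and no MK5 siRNA library reached the lowest control.

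RPS6, the substrate of the S6 kinases, was at 2347, 1895 and 1831 CPM in controls and 1709.9, 1366 and 1444 CPM after MK5 siRNA (−0.43 ± 0.15, edgeR adjusted p = 0.0489). This call lay at the threshold, and RPS6 did not pass without control replicate 2 or 3 or MK5 siRNA replicate 2 or 3 (edgeR adjusted p from 0.0590 to 0.178), nor without scaling, with median-of-ratios scaling or without a filter on low counts (0.0575, 0.0512 and 0.0611). The 5 other small-subunit genes that fell were RPS3A, RPS24, RPS25, RPS7 and RPS4X, with log2 fold changes from −0.45 to −0.35. Of 30 small-subunit genes 8 fell (26.7%, against 23.7% of all genes), and the median was −0.31.

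Of the 43 large-subunit genes 18 fell (41.9%, against 23.7% of all genes), with a median of −0.36. RPL39L, a paralog of the exit-tunnel protein gene RPL39, was low, at 40.5, 22.9 and 26.3 CPM in controls and 18.2, 16.9 and 17.7 CPM after MK5 siRNA (−0.76 ± 0.22, edgeR adjusted p = 0.0269). Left without control replicate 1 the log2 ratio was −0.48. RPL39L failed the threshold when any 1 was left out of MK5 siRNA replicates 1, 2 and 3 (edgeR adjusted p = 0.0755, 0.0943 and 0.0836). RPL39 itself, at 555, 456 and 448 CPM in controls and 454, 371 and 377 CPM after MK5 siRNA, did not pass (−0.28 ± 0.14, edgeR adjusted p = 0.133), but did with the replicate block (edgeR adjusted p = 0.0477). In RPL39L all MK5 siRNA libraries lay below all controls, whereas in RPL39 the groups overlapped. A test of the difference between the paralogs was not run.

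RPL23, a large-subunit protein that can bind MDM2, fell from 1008, 853 and 867 CPM in control replicates 1, 2 and 3 to 565, 524 and 550.1 CPM in MK5 siRNA replicates 1, 2 and 3. Its log2 fold change was −0.74 ± 0.11 (edgeR adjusted p = 0.00221). RPL12, part of the stalk base, was at 1239, 1040.1 and 1038 CPM in controls and at 771, 674 and 669 CPM after MK5 siRNA (−0.65 ± 0.12, edgeR adjusted p = 0.00536). RPL37 fell from 755, 615 and 618 CPM to 465, 412 and 411 CPM (−0.63 ± 0.12, edgeR adjusted p = 0.00664). RPL10A fell from 981, 820.3 and 849.6 CPM to 589, 566 and 565 CPM (−0.62 ± 0.11, edgeR adjusted p = 0.00399). In all 4 the lowest control library lay above the highest MK5 siRNA library. The other large-subunit genes that fell were RPL6, RPL24, RPL35, RPL7A, RPL37A, RPL22, RPL15, RPL28, RPL26, RPL7, RPL35A, RPL4 and RPL23A, with log2 fold changes from −0.60 to −0.34. RPL4, among the most abundant members, was at 2889, 2502 and 2515 CPM in controls and at 2066, 2031 and 2094 CPM after MK5 siRNA (−0.35 ± 0.11, edgeR adjusted p = 0.0320). The RPL4 call was lost without scaling, without the filter and when any 1 library but control replicate 1 was left out (edgeR adjusted p from 0.0580 to 0.129).

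The stalk genes differed among themselves in their values. RPLP0, which anchors the stalk, was at 3900.0, 3204 and 3289.65 CPM in controls and at 2375, 2042 and 2034 CPM after MK5 siRNA, a fall of 37.9% (−0.69 ± 0.13, edgeR adjusted p = 0.00535). RPLP1 was at 1502, 1335 and 1379 CPM in controls and at 1388, 997 and 1013 CPM after MK5 siRNA, and did not pass (−0.31 ± 0.15, edgeR adjusted p = 0.140). It passed without MK5 siRNA replicate 1 (−0.48, edgeR adjusted p = 0.0224). RPLP2 was at 585, 385 and 416 CPM in controls and at 566, 419 and 442 CPM after MK5 siRNA, with no change of clear direction (0.04 ± 0.20, edgeR adjusted p = 0.872). In RPLP1 and RPLP2 replicate 1 was the highest library of each group, and the groups overlapped. A test of the difference between stalk genes was not run.

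A total of 9 members passed in the fit described and in each of its 14 alternatives: RPS20, RPL23, RPS10, RPLP0, RPL12, RPL37, RPL10A, RPL6 and RPL24. They were the only members that fell without MK5 siRNA replicate 2, where the share was 11.8% against 15.4% of all genes. How many of all genes passed in every fit was not counted. Among the 49 that did not pass, 16 had an edgeR adjusted p from 0.0523 to 0.10. In 44 of the 76 genes (57.9%) every MK5 siRNA library was below every control library, and in none above; over all genes tested these shares were 29.8% and 30.6%, or 60.4% in all.

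**Figure D4:**
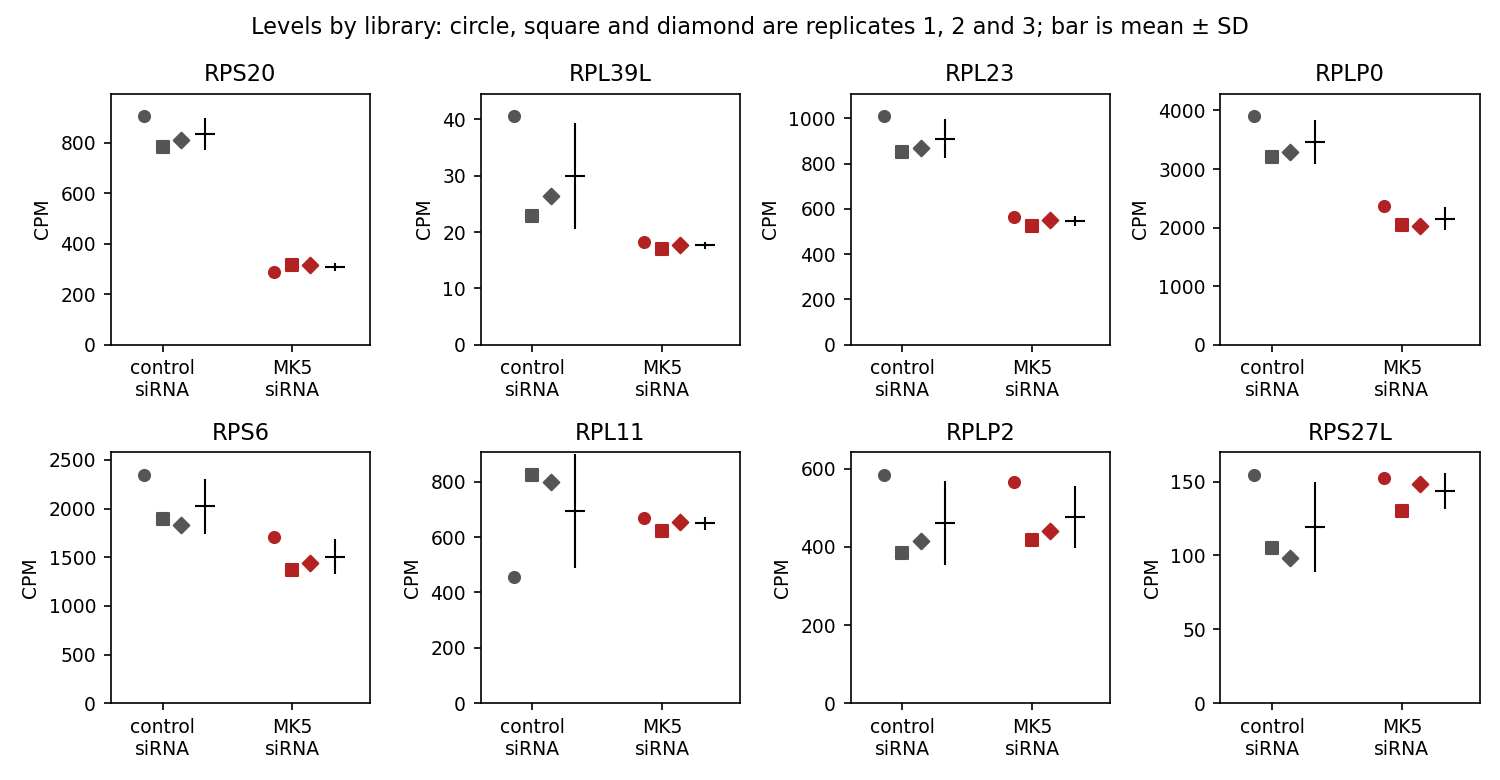
Levels in CPM of 8 ribosomal protein genes in each library, with the mean ± SD of 3 libraries per group. RPS20, RPL39L, RPL23, RPLP0 and RPS6 show MK5 siRNA libraries below all controls, and in RPL11, RPLP2 and RPS27L the groups overlap.

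The ribosomal proteins of the particle with 5S RNA, RPL5 and RPL11, bind and inhibit MDM2 when ribosome assembly fails. RPL5 was at 1611, 1289 and 1283 CPM in controls and at 1194, 1015 and 1049 CPM after MK5 siRNA, with the groups apart, and did not pass (−0.36 ± 0.13, edgeR adjusted p = 0.0643). RPL5 passed with the block and without control replicate 1 (edgeR adjusted p = 0.0260 and 0.0402). RPL11 was at 457 CPM in control replicate 1 but at 825 and 799 CPM in control replicates 2 and 3, and at 670.4, 624 and 655 CPM after MK5 siRNA. With all libraries its log2 fold change was −0.09 ± 0.22 (edgeR adjusted p = 0.750), and without control replicate 1 it was −0.32 (edgeR adjusted p = 0.00478). MDM2 itself did not pass (−0.21 ± 0.21, edgeR adjusted p = 0.450), and fell without control replicate 1 (−0.41, edgeR adjusted p = 0.00751) and without replicate 1 of both groups (−0.37, edgeR adjusted p = 0.000238).

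RPS27L, a paralog of RPS27, had the highest fold change of the members. It was at 155, 105 and 98.6 CPM in control replicates 1, 2 and 3 and at 152, 130.0 and 148 CPM in MK5 siRNA replicates 1, 2 and 3, without passing the test (0.27 ± 0.19, edgeR adjusted p = 0.278). Control replicate 1 was the highest of all libraries, and the other controls lay below every MK5 siRNA library. RPS27L rose without control replicate 1 (0.50, edgeR adjusted p = 0.00169) and without replicate 1 of both groups (0.46, edgeR adjusted p = 6.3e-06). RPS27 was at 662, 563 and 589 CPM in controls and at 521, 460 and 477 CPM after MK5 siRNA (−0.32 ± 0.11, edgeR adjusted p = 0.0527), with the groups apart, and passed with the block (edgeR adjusted p = 0.0347).

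At the other end of the members' fold changes that did not pass, RPL17 was at 6.24 CPM in control replicate 1, at 13.5 and 14.2 CPM in control replicates 2 and 3, and at 7.26, 7.16 and 8.42 CPM after MK5 siRNA. Its log2 fold change was −0.57 ± 0.31 (edgeR adjusted p = 0.173), and −0.86 without control replicate 1 (edgeR adjusted p = 0.000719). RPL3, a core protein of the peptidyl transferase centre, was at 3213, 2725 and 2769 CPM in controls and at 2647, 2269 and 2330.3 CPM after MK5 siRNA. It did not pass (−0.27 ± 0.12, edgeR adjusted p = 0.115), although the groups did not overlap, and it passed with the block (edgeR adjusted p = 0.0447). RPL26 was at 28.3, 23.7 and 26.9 CPM in controls and at 21.2, 17.7 and 20.6 CPM after MK5 siRNA, and fell (−0.41 ± 0.13, edgeR adjusted p = 0.0418). This call was lost without scaling, without the filter, without control replicate 3 and without any 1 MK5 siRNA replicate (edgeR adjusted p from 0.0620 to 0.172).

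Levels per length were alike in most members. Divided by the median length of the gene's coding transcripts in GENCODE, from 359 to 2316.5 bases, the median member stood at 1026 CPM per kb in controls, and 65 of 76 lay within 3-fold of that median. RPLP1, RPLP0 and RPS24 were highest in controls, at 3159, 3134 and 3066 CPM per kb, which do not differ beyond their spread (SD 194, 343 and 316, n = 3). RPL39L, RPL26 and RPL17 were lowest in controls, at 39.9, 39.0 and 15.6 CPM per kb. RPL17 shares exons with the readthrough gene RPL17-C18orf32, listed at 0 in all libraries. RPL26 shares exon positions with the annotated gene AC135178.2 on the same strand. The part of such overlaps in these low levels was not tested. Members share exon positions with another annotated gene on the same strand in 32 cases, mostly small nucleolar RNAs, and on the opposite strand alone in 15. The 29 members without such an overlap had a median log2 fold change of −0.32 and the others one of −0.35. Ribosomal protein genes have many processed pseudogenes, to which their reads can also map. All 1080 pseudogene rows together took from 0.0532% to 0.0602% of counts per library. With 1044 of them added to their parent genes, 27 members fell (23.8% of all genes), with a median of −0.33. Pseudogene rows held over 10% of the summed counts in RPL23A (13.3%), RPS28 (13.2%) and RPS2 (12.7%), whose values are therefore less certain.

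The size of the change showed rank correlations near 0 with level, length and start sequence. Across the 76 members, Spearman's rho with the log2 fold change was −0.13 for the control level per kb and −0.02 for transcript length. Across the 61 with an annotated start it was −0.02 for the length of the opening run of C and T, which reached 19 bases. These are descriptions over genes measured in the same libraries. The 44 members with the tract had a median of −0.32 and 15 of them fell. The 17 without it had a median of −0.35 and 6 fell, where 23.7% of all genes tested fell.

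Proteins of the cytosolic ribosome whose symbols fall outside the rule had mixed values. RPSA, the small-subunit protein also known as the laminin receptor, fell from 2182, 2064 and 2129.7 CPM to 1792, 1562 and 1601 CPM (−0.36 ± 0.10, edgeR adjusted p = 0.0265). It did not pass without control replicate 2 or 3 or MK5 siRNA replicate 2 or 3 (edgeR adjusted p from 0.0597 to 0.128). FAU, which encodes a ribosomal protein fused to a ubiquitin-like protein, was without a call (0.11 ± 0.11, edgeR adjusted p = 0.433).

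Among 4 paralogs outside the rule, 3 fell and none rose, where 23.7% of all genes tested fell and 22.5% rose. Without MK5 siRNA replicate 2 or 3, 2 of them fell in each fit (15.4% and 15.8% of all genes). RPL22L1, whose start is shown above, was at 49.3, 80.3 and 85.6 CPM in controls and at 31.2, 35.2 and 37.1 CPM after MK5 siRNA, a fall of 51.9% (−1.06 ± 0.22, edgeR adjusted p = 0.00733). Its counterpart RPL22 fell from 717, 567 and 547 CPM to 470.1, 399.7 and 418 CPM (−0.51 ± 0.14, edgeR adjusted p = 0.0228), a call lost without MK5 siRNA replicate 2 or 3 (edgeR adjusted p = 0.101 and 0.0887). RPL36AL fell by 39.8% (−0.73 ± 0.10, edgeR adjusted p = 0.00188) and RPL7L1 by 27.3% (−0.46 ± 0.10, edgeR adjusted p = 0.0113), although RPL7L1 did not pass without MK5 siRNA replicate 2 or 3 (edgeR adjusted p = 0.0672 and 0.0558). Control replicate 1 held RPL26L1 at 5.56 CPM, control replicates 2 and 3 at 38.8 and 42.9 CPM, and the MK5 siRNA libraries at 33.2, 27.9 and 28.4 CPM. Its log2 fold change was 0.04 ± 0.62 (edgeR adjusted p = 0.966) with all libraries and −0.45 without control replicate 1 (edgeR adjusted p = 0.00620).

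Other mRNAs known for a TOP tract did not show the lower median of the ribosomal protein genes. Of 17 measured, 4 rose (23.5%, against 22.5% of all genes), 2 fell (11.8%, against 23.7%) and 11 did not pass. The median was 0.07, and it was −0.02 without control replicate 3 and between 0.06 and 0.17 under the other scalings. The initiation factor subunit genes EIF3A and EIF3G rose by 0.62 ± 0.13 and 0.44 ± 0.10 (edgeR adjusted p = 0.00955 and 0.0130), and HNRNPA1, an RNA-binding protein gene, fell (−0.79 ± 0.10, edgeR adjusted p = 0.00108). EEF2, the elongation factor that moves the ribosome along the mRNA, was at 2997, 3801 and 3967 CPM in controls and at 5062, 4613 and 4641 CPM after MK5 siRNA (0.41 ± 0.14, edgeR adjusted p = 0.0457). NPM1, the nucleolar protein nucleophosmin, fell from 2003, 1821 and 1791 CPM to 1352, 1488 and 1578 CPM (−0.35 ± 0.11, edgeR adjusted p = 0.0390). EEF2 and NPM1, named for the sequences shown, both open with the tract, as do 9 of 11 of these genes with an entry. Leaving out 1 library moved the number risen to 7 (without control replicate 1), to 1 (without control replicate 2 or MK5 siRNA replicate 3) or to 2 (without the others). In fits with 1 library left out, from 15.1% to 32.3% of all genes rose and from 15.4% to 32.1% fell. The number fallen was 1 when any 1 library but control replicate 1 was left out, without scaling, without the filter and with the block, since NPM1 then did not pass (edgeR adjusted p from 0.0562 to 0.129). EEF2 did not pass with the block or when any 1 library but control replicate 1 was left out (edgeR adjusted p from 0.0602 to 0.106), nor EIF3G without control replicate 2 or MK5 siRNA replicate 3 (edgeR adjusted p = 0.0524 and 0.0604). The difference between this list and the ribosomal protein genes was not tested.

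**Figure D5:**
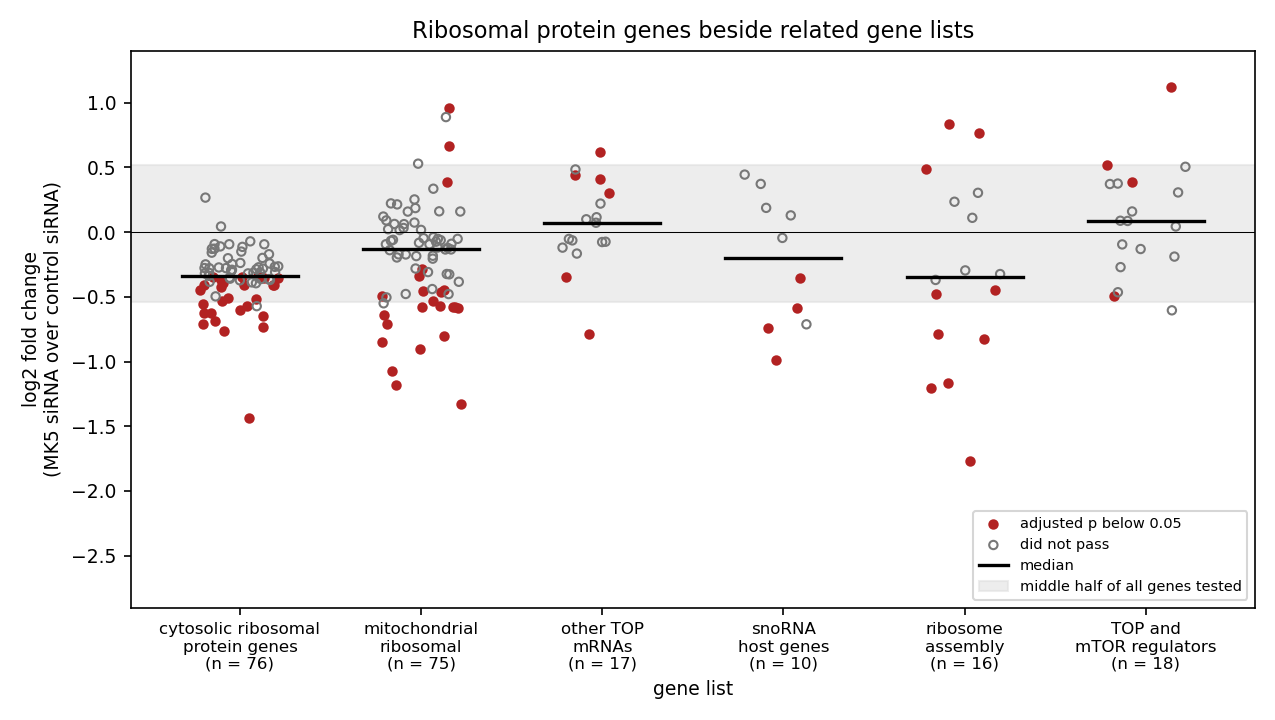
Log2 fold changes of the ribosomal protein genes beside related gene lists, with 1 point per gene and black lines at the medians. Red points passed the test and open ones did not, and the grey band spans the middle quartiles of all genes tested, from −0.54 to 0.52. The medians are −0.34 for the 76 members, −0.13 for mitochondrial ribosomal protein genes and 0.07 for other TOP mRNAs.

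Genes that serve the making of ribosomes changed in both directions. Of 16 assembly factors, 7 fell and 3 rose, with a median of −0.35, where 23.7% of all genes fell and 22.5% rose. The greatest changes were in BCCIP (−1.77 ± 0.11), which is needed for maturation of the large subunit, MRTO4 (−1.20 ± 0.13), which precedes RPLP0 on the forming subunit, and GRWD1 (−1.17 ± 0.14), a chaperone of RPL3 (edgeR adjusted p from 0.000209 to 0.000921). Of 10 host genes of small nucleolar RNAs, 4 fell and none rose, although SNHG7 reached an unadjusted p below 0.05 upward and 1 rose in DESeq2. SNHG15, SNHG16 and GAS5 fell, with log2 fold changes of −0.99 ± 0.15, −0.74 ± 0.19 and −0.58 ± 0.10 (edgeR adjusted p from 0.00255 to 0.0162). Of 18 regulators of TOP mRNAs and of ribosomal protein transcription, 3 rose and 1 fell. The repressor gene ZBTB7A rose by 1.12 ± 0.24, the mTORC1 inhibitor gene TSC2 by 0.52 ± 0.10 and MTOR by 0.39 ± 0.09, while RHEB, the activator of mTORC1, fell and stood at −0.49 ± 0.16 (edgeR adjusted p for these genes from 0.00631 to 0.0411). LARP1 and MYC did not pass (0.16 ± 0.11 and −0.46 ± 0.34, edgeR adjusted p = 0.257 and 0.291), although MYC fell with the block (edgeR adjusted p = 0.0173). Without scaling beyond the library total, 6 of the 18 rose and none fell (26.4% and 20.2% of all genes), and without control replicate 1, 8 rose and 3 fell (32.3% and 32.1%). RHEB did not pass without any 1 MK5 siRNA replicate or control replicate 3, without scaling or without the filter (edgeR adjusted p from 0.0513 to 0.139). MTOR did not pass without control replicate 2 or 3 or MK5 siRNA replicate 2 or 3 (edgeR adjusted p from 0.0511 to 0.0736), nor SNHG16 without MK5 siRNA replicate 2 or 3 (0.0712 and 0.0585). Without control replicate 1, 3 of the small nucleolar RNA hosts rose and 5 fell (32.3% and 32.1% of all genes). Without MK5 siRNA replicate 2 or 3, 2 of these hosts fell in each fit (15.4% and 15.8% of all genes). The assembly factors showed from 5 to 7 falls when 1 library was left out, where from 15.4% to 32.1% of all genes fell. Of these factors 5 rose without control replicate 1, where 32.3% of all genes rose.

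The mitochondrial ribosomal protein genes, the set most like the members in function, spread more widely. Of 75 tested, 20 fell and 3 rose, with a median of −0.13 and an interquartile range of 0.50 against 0.15. MRPL33 (−1.33 ± 0.16), MRPS18C (−1.18 ± 0.20) and MRPL11 (−1.07 ± 0.10) fell most (edgeR adjusted p from 0.000427 to 0.00329). Without MK5 siRNA replicate 2, 12 fell, where 15.4% of all genes fell. Without control replicate 1, 9 rose and 26 fell, where 32.3% of all genes rose and 32.1% fell. With all libraries the share fallen was 26.7% against 23.7% of all genes tested, and the share risen 4% against 22.5%. The difference from the cytosolic genes was not tested.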

How the data were processed

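RNA-seq counts of 6 libraries were analysed. The deposited values are whole-number counts per gene, with a column for each library; its file is named for CPM, but the values are whole and unscaled. Per the submitters' processing notes, the tools were Trimmomatic 0.36, HTSeq 0.9.1, TopHat2 2.1.1 and FastQC, with build GRCh37. Not given in the sources used here: annotation release, strand setting and treatment of multi-mapped reads.

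In R 4.3.3, edgeR 4.0.16 kept 13431 genes (filterByExpr, least count 10, least total 15), scaled libraries by TMM and fitted the quasi-likelihood test with group as the single term. P-values were two-sided and adjusted by Benjamini-Hochberg over those genes, with a threshold of 0.05. The standard error is the fold change divided by the square root of F. Pair changes use log2(CPM + 0.5). P-values measure the spread between these libraries, which may in part be technical. DESeq2 1.42.0, other scalings, no filter, left-out libraries and summed pseudogenes were alternatives. The code was tested on simulated data.

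Over all genes, same-numbered libraries had correlated deviations from their group means (0.258, 0.206 and 0.248). Control replicate 3 with MK5 siRNA replicate 2 (0.182) and control replicate 2 with MK5 siRNA replicate 3 (0.151) were correlated too. Replicate 1 of either group with the other numbers gave from −0.263 to −0.208. The numbers were taken as pairs in the pair changes and the replicate block, and the fit with group as the single term held no pairs. The labels name no shared day, and replicate 1 standing apart in both groups enters these values.

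The members and lists were chosen with earlier results of these data known. Named are the 8 passing members of largest change, paralogs, stalk genes, RPL5, RPL11, RPS6, the 3 members of highest and of lowest level, the relatives outside the rule and up to 3 passing genes per list. RPL6, RPS26, RPL39, RPS27, RPL22, RPS24, MTOR, LARP1, MYC, EEF2, NPM1, MDM2, SNHG7 and the cell type markers were added after values were seen. Some listed genes are not reported here. Start sequences (RefSeq, GRCh38.p14) and lengths (GENCODE 29, GRCh38) were joined by symbol or identifier, and no coordinate was set against GRCh37.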

Additional observations from a re-analysis of the deposited data

How the results depend on the processing

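Of the 350 values of 25 named genes under the alternatives, 299 kept their direction and side of the threshold, 29 lost their call, 14 gained it and 8 changed sign. No member rose with all libraries, and 1 did without replicate 1 of both groups and without control replicate 1. The number fallen was 17 without scaling beyond the library total and 17 without a filter on low counts, 49 with the replicate block and 63 without replicate 1 of both groups. Leaving out 1 library gave from 0 to 1 risen, from 9 to 40 fallen and a median from −0.41 to −0.24. The median was −0.23 without scaling beyond the library total, a setting in which the median of all genes moved to 0.10. A change of scaling shifts all genes by about the same amount. The distance between these medians is therefore no check on the members.

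Sign changes were in RPL26L1, RPL11 and RPLP2, all near 0 with all libraries. RPL26L1 gave −0.53 without replicate 1 of both groups and from −0.45 to 0.42 when 1 was left out. RPL11 ranged from −0.32 to 0.035 and RPLP2 from −0.10 to 0.25 when 1 was left out. The cause was not tested. The common coefficient of variation was 21.2% with all libraries and 4.63% without replicate 1, so the number of calls among small changes such as these rests on how replicate 1 is treated.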
